A study of Mus musculus with 4 samples.

Results

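Plasmacytoid dendritic cells (pDCs) of mouse bone marrow were studied here in TLR9-/- and wild-type (WT) animals, by droplet single-cell RNA sequencing of the 5′ ends of transcripts. A cell was taken as a pDC when it carried at least 2 unique molecular identifiers (UMIs, each standing for 1 captured transcript) of Siglech, at least 4 UMIs of Siglech, Cox6a2 and Klk1 together, and at most 1 UMI of the B cell gene Cd79a. Of 39167 cells that had 200 to 10000 genes and at most 10% mitochondrial UMIs, 2204 were pDCs by this rule. There were 580 pDCs in TLR9-/- library 1, 649 in TLR9-/- library 2, 619 in WT library 1 and 356 in WT library 2. Each library came from the bone marrow mononuclear cells of 1 mouse, flushed from femur and tibia and separated on Ficoll. All 4 mice had the C57BL6/J background, and the TLR9-/- animals carried a disrupted Tlr9 allele that had been typed by PCR. Age and sex of these 4 animals were not given in the sources used here. No treatment is given for them, and the genotypes were bred in separate cages, so that genotype and cage cannot be told apart. The study asked what loss of TLR9, an endosomal receptor for unmethylated CpG DNA, does to bone and to the marrow populations, and 2 experiments each contributed 1 mouse of each genotype. Cells of 1 mouse are not replicates, so UMIs were summed over the pDCs of each library, and every p-value below measures the spread between libraries, all 4 of them unless a library is said to be left out. A fit without 1 library leaves a single library in that genotype, which is then assumed to vary like the 2 libraries of the other genotype, and its calls are given as a description of how far a value rests on the library left out. The summed pDC profiles held 2160700 and 3906713 UMIs for TLR9-/-, against 1905640 and 1588235 for WT. The median pDC had 2512 and 3801 UMIs for TLR9-/-, against 2142 and 2936 for WT. Values are always given for library 1 before library 2.

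pDCs are the specialised producers of type I interferon. They sense nucleic acids through TLR7 and TLR9, which UNC93B1 escorts to endosomes, where cathepsins trim the receptors and signals pass through MyD88 to the interferon regulator IRF7. Their identity is held by the E protein TCF4, a transcription factor whose binding to DNA is blocked by ID proteins, which pair with E proteins but lack a DNA-binding region of their own.

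The label was checked against markers that the rule did not use. Bst2, a surface antigen and tetherin, was detected in 99.6% of pDCs and in 28.5% of all other cells. Irf8, a transcription factor of the dendritic lineage, was detected in 98.8% of pDCs and 29.5% of other cells, and Tcf4 in 90.0% and 17.6%. Cells on both sides of the rule's limit carried these genes at similar shares. At a rule sum of 4 UMIs, just inside, 72 cells carried Bst2 in 95.8% and Tcf4 in 81.9% of cases, while at a sum of 3, just outside, 83 cells carried them in 97.6% and 84.3%. A further 226 cells had a sum of 4 or more but a single Siglech UMI, and 248 were left out for their Cd79a. The rule genes themselves are given as a description only. Siglech stood at 1389 and 1150 CPM (the UMIs of a gene relative to all UMIs of the profile, scaled by the trimmed mean of M values) for TLR9-/-, against 1549 and 1176 for WT. Cox6a2, a muscle-type cytochrome oxidase subunit that pDCs express, stood at 2064 and 1908 against 2757 and 2111. Klk1, a tissue kallikrein with several near-identical neighbours, stood at 1251 and 1149 against 693 and 405, so both TLR9-/- libraries lay above both WT libraries in this gene.

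Some pDC profiles carried RNA of a further lineage. At least 10 UMIs on the neutrophil, erythroid, B lineage or T and NK marker list were found in 95, 124, 85 and 62 pDCs of TLR9-/- 1, TLR9-/- 2, WT 1 and WT 2, which is 16.4%, 19.1%, 13.7% and 17.4% of them. These cells were deep, with medians of 5801, 8449, 4375 and 6521 UMIs, and they held 40.2% of all pDC UMIs. No doublet caller was run, and the tests on genes were therefore repeated over the other 1838 pDCs, with the outcome given below for the called genes and the lists. The summed neutrophil markers, led by S100a9, reached 40131 and 44470 unscaled CPM (without the trimmed mean of M values) in TLR9-/- pDCs, against 28388 and 45522 in WT pDCs. The summed erythroid markers, led by Hbb-bs, reached 4406 and 2069 against 16269 and 2204, so WT 1 stood apart. All members of these 2 lists were detected. A single pDC barcode was shared between TLR9-/- 1 and WT 1, and another between TLR9-/- 2 and WT 2.

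The endosomal sensors were first compared between pDCs and the other marrow cells, in unscaled CPM. Tlr7, the receptor for single-stranded RNA, reached 56.0 and 39.2 in TLR9-/- pDCs and 72.9 and 32.1 in WT pDCs. In conventional dendritic cells it reached 7.63 and 4.57 against 16.2 and 25.7, and in B lineage cells 4.13 and 6.89 against 7.34 and 3.72. In every one of the 4 libraries the Tlr7 level of pDCs was thus above that of conventional dendritic cells, B lineage cells and monocyte lineage cells. Tlr9 reached 20.5 and 7.56 in WT pDCs, 4.30 and 4.13 in WT B lineage cells and 2.61 and 3.22 in WT monocyte lineage cells. Unc93b1 reached 541 and 553 in TLR9-/- pDCs and 554 and 490 in WT pDCs, compared with 296 and 338 and with 328 and 293 in B lineage cells. Tlr12, described below, had 16 and 36 UMIs in TLR9-/- pDCs and 42 and 51 in WT pDCs. The receptor genes Tlr3, Tlr8 and Tlr13 were barely seen in pDCs. Tlr3, the receptor for double-stranded RNA, had 5 UMIs in all pDCs, Tlr8 had 4 and Tlr13, a sensor of bacterial ribosomal RNA, had 29. Tlr3 was highest in conventional dendritic cells, at 22.9 and 6.85 in TLR9-/- against 21.6 and 21.4 in WT.

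**Figure D1:**
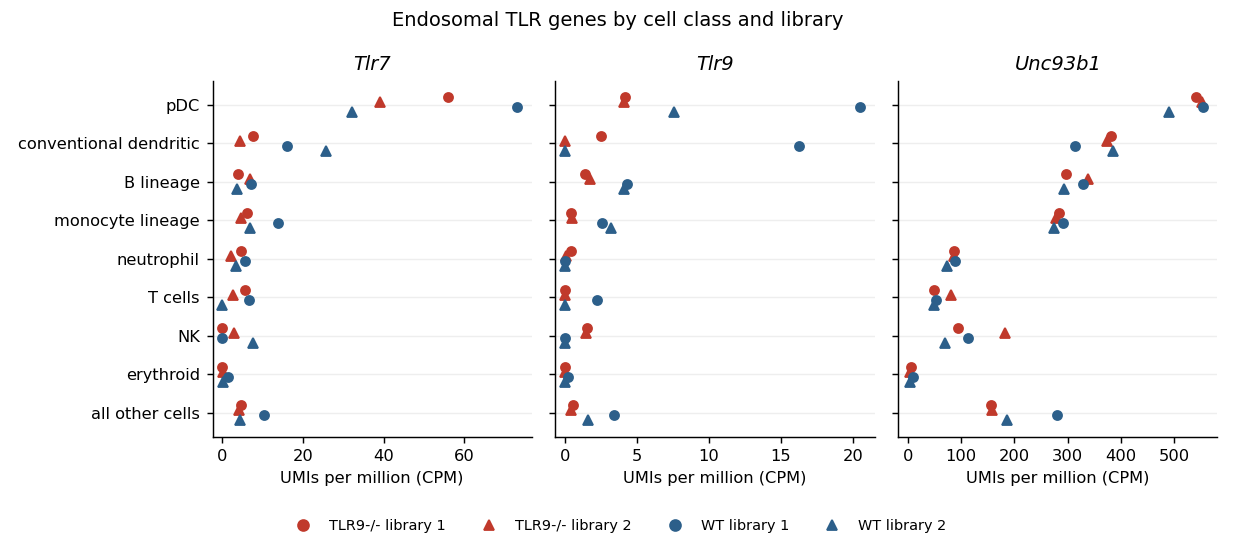
Unscaled CPM of Tlr7, Tlr9 and Unc93b1 in pDCs and in other classes of marrow cells, with 1 point per library, the genotypes in separate colours and the library numbers in separate shapes. Tlr7 and Unc93b1 sit highest in the pDCs, where WT 1 has the most Tlr7 at 72.9.

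Transcripts of the disrupted gene were still captured. Tlr9 (chr9:106222598-106226883, GRCm38) had 9 and 16 UMIs in TLR9-/- pDCs and 39 and 12 UMIs in WT pDCs. This amounted to 4.22 and 4.05 CPM against 21.1 and 7.52, so both TLR9-/- libraries lay below both WT libraries, with the widest gap to WT 1. The log2 fold change was -1.81 ± 0.50 (SE, n = 2 libraries per genotype), with an adjusted p of 0.464 in edgeR's quasi-likelihood test with Benjamini-Hochberg adjustment over 9473 genes. The difference was -2.27 between the libraries numbered 1 and -0.86 between those numbered 2. It was -0.85 without WT 1 and -2.34 without WT 2, where the high library WT 1 stood alone for its genotype. With no filter on low counts Tlr9 was called, at -1.76 with an adjusted p of 0.00165 by edgeR. With the library number as a replicate block, which the labels do not tie to the 2 experiments, Tlr9 was called at -1.64 (adjusted p = 0.00347, edgeR). Over the pDCs without further lineage markers it was -1.80 (adjusted p = 0.499, edgeR). After thinning each pDC to 1000 UMIs, Tlr9 was detected in 0.709% and 0.464% of TLR9-/- pDCs and in 2.50% and 1.15% of WT pDCs, and in almost no T cell. The sources used here did not say where the disrupted stretch lies relative to the 5′ reads, so these UMIs check the genotype labels only in part.

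The machinery of endosomal sensing gave no call in either direction, apart from the calls of Tlr9 in alternative fits given above. Of 20 genes on this list, Tlr9 included, 17 had enough UMIs to be tested, 0 were called by edgeR or by DESeq2, and 2 had an unadjusted p under 0.05, namely Tlr9 (0.00535) and Pld3 (0.0429). Their median log2 fold change was -0.04, beside -0.01 for all 9473 genes. Tlr7 gave -0.20 ± 0.35 and the escort Unc93b1 gave 0.05 ± 0.18. The endosomal exonucleases Pld3 and Pld4, which degrade the nucleic acid ligands, gave -0.90 ± 0.39 and -0.09 ± 0.18. Among the chaperones, Cnpy3 gave -0.14 and Hsp90b1 0.15. The adaptor complex subunits Ap3b1 and Ap3d1 gave 0.38 and -0.06, and the histidine transporter Slc15a4 and its partner 5430427O19Rik gave 0.16 and 0.13. The receptor-processing proteases Ctsb, Ctsl, Ctss and Lgmn lay between -0.05 and 0.15, Hps1 was at 0.23 and Bloc1s1 at -0.34. Tlr12, a receptor for profilin that lies outside the list and was picked after its values were seen, had 7.5 and 9.12 CPM against 22.7 and 31.9, a log2 fold change of -1.68 ± 0.29 with an adjusted p of 0.0818 by edgeR.

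Across all genes, 22 of 9473 differed between TLR9-/- and WT pDCs at an adjusted p under 0.05 (edgeR's quasi-likelihood test), a share of 0.232%. Of these, 7 were higher in TLR9-/- pDCs, or 0.0739% of the genes tested, and 15 were lower, or 0.158%. At an unadjusted p under 0.05 there were 619 genes, or 6.53%. Without the pDCs that carried markers of a further lineage, 12 genes were called, and these were all among the 22. A set of 9 genes stayed past the threshold in all 15 fits, which were the main one and 14 alternatives. Higher among them were Id3, Mid1, Ocel1, BC018473 and Gm6594, and lower were Cd300c, Adam11, Trim12a and Trim30d.

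**Figure D2:**
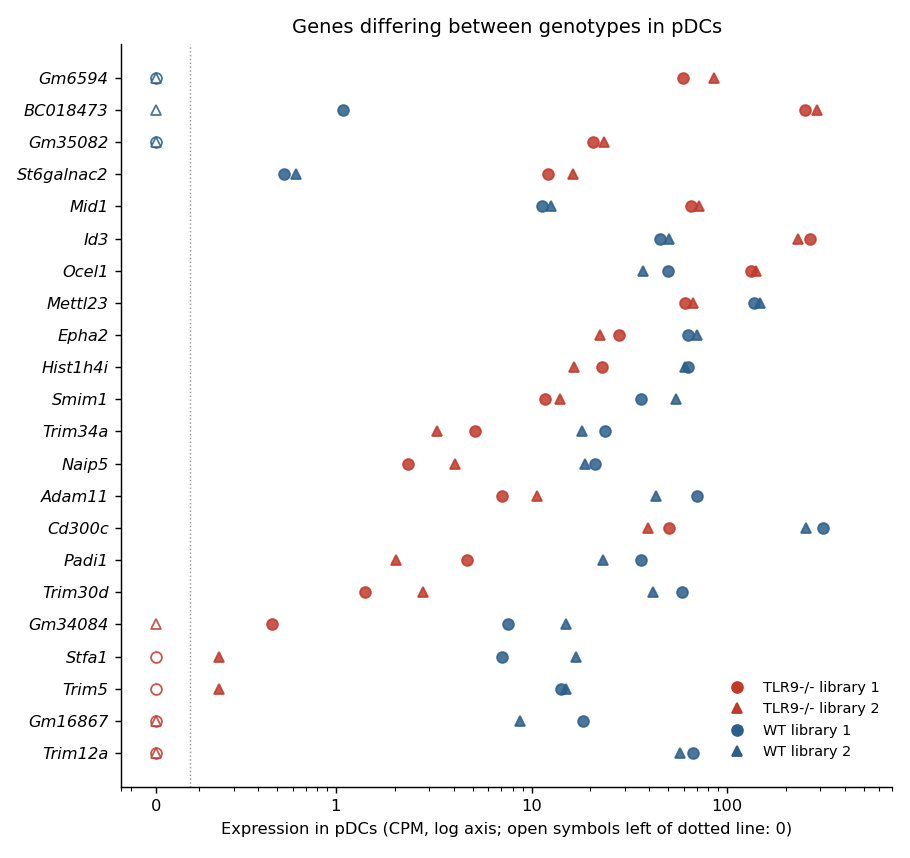
CPM of the genes called between TLR9-/- and WT pDCs on a log axis, with 1 point per library, and open symbols at the left edge for libraries without a UMI. For each of these genes the 2 TLR9-/- points lie on one side of the 2 WT points, as for Id3 at 265 and 230 against 45.5 and 50.7.

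Id3, an inhibitor of E proteins (ENSMUSG00000007872, chr4:136143497-136145755), was higher in TLR9-/- pDCs. It stood at 265 and 230 CPM against 45.5 and 50.7 CPM in WT, or 248 ± 24.7 against 48.1 ± 3.72 (mean ± SD, n = 2). The groups were far apart, and the gap exceeded the spread within either of them several times over. The log2 fold change was 2.36 ± 0.19 (SE) with an adjusted p of 0.000655 by edgeR, and over the pDCs without further lineage markers it was 2.44 with an adjusted p of 0.00244. More cells carried it as well. Id3 was detected in 48.6% and 58.1% of TLR9-/- pDCs but in 9.69% and 14% of WT pDCs. With every cell thinned to 1000 UMIs these shares were 28.7% and 26.9% against 2.83% and 4.58%, while monocyte lineage cells at the same thinned depth held it in 0.388%, 0.312%, 0.109% and 0.391% of cells. The median depth before thinning was 6478, 8201, 4524 and 5674 UMIs in those monocyte lineage cells. None of the related genes was called. Id2, the family member typical of conventional dendritic cells, gave a log2 fold change of -0.37 with an adjusted p of 0.842 by edgeR. The E proteins Tcf4, Tcf3 and Tcf12 gave -0.20, -0.13 and -0.22.

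B lineage cells expressed Id3 at about the TLR9-/- pDC level in all 4 libraries, with 230 and 251 unscaled CPM in TLR9-/- and 270 and 203 in WT. On the same scale pDCs had 262 and 233 against 44.1 and 51.0. The genotype difference within B lineage cells was 0.00 ± 0.22 on the log2 scale (adjusted p = 0.997, edgeR). It was -0.40 in monocyte lineage cells (adjusted p = 0.840, edgeR) and -0.31 in neutrophils (adjusted p = 0.939). The interaction, which tests whether the genotype difference in pDCs departs from that elsewhere, was 3.25 ± 0.20 against all other cells, with an adjusted p of 8.89e-06 by edgeR. Against B lineage cells alone it was 2.37 (adjusted p = 0.00125, edgeR), and against monocyte lineage cells alone 2.76 (adjusted p = 0.0326). With the 238 conventional dendritic cells it was 1.12 and was not called. The Id3 difference was thus not shown to be particular to pDCs when set against these most similar cells.

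**Figure D3:**
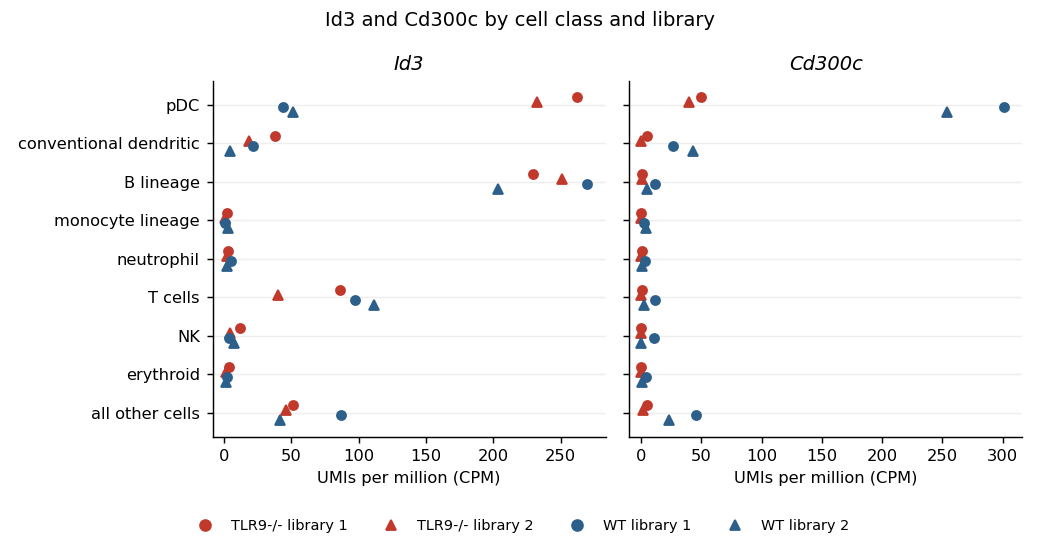
Unscaled CPM of Id3 in pDCs and other classes of marrow cells, with 1 point per library. In pDCs the TLR9-/- libraries, at 262 and 233, lie above the WT libraries, at 44.1 and 51.0, while in B lineage cells the genotypes overlap.

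Cd300c, a gene of the CD300 family of surface receptors (ENSMUSG00000058728, chr11:114956116-114969157), was lower in TLR9-/- pDCs. It stood at 50.2 and 39.3 CPM against 311 and 252 CPM in WT, or 44.7 ± 7.69 against 282 ± 41.2 (mean ± SD, n = 2). The log2 fold change was -2.67 ± 0.21 with an adjusted p of 0.000647 by edgeR, and -2.63 with an adjusted p of 0.00121 without further lineage markers. Fewer cells carried it, as it was detected in 15.5% and 20.3% of TLR9-/- pDCs and in 56.7% and 61.2% of WT pDCs. At 1000 UMIs per cell the shares were 6.03% and 6.49% against 35.3% and 25.8%, with at most 0.408% of erythroid cells in any library. It was the only called gene on the list of pDC identity genes, by edgeR and by DESeq2 alike. Outside pDCs the difference had the same sign and missed the threshold, with a log2 fold change of -2.83 in B lineage cells (adjusted p = 0.166, edgeR) and -2.81 in monocyte lineage cells (adjusted p = 0.0596). The interaction with all other cells was 0.43 (adjusted p = 0.740, edgeR), so no difference between pDCs and the rest was detected for this gene.

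Further genes were lower in TLR9-/- pDCs and had too few UMIs to be tested in most other classes. Among B lineage, monocyte lineage and neutrophil cells, Adam11 could be tested in monocyte lineage cells only, and Padi1 and Epha2 in B lineage cells only, and none of these tests gave a call. Adam11 (chr11:102761439-102780262), which encodes a catalytically inactive ADAM protein known from neurons, stood at 7.03 and 10.6 CPM against 70.4 and 43.2, with a log2 fold change of -2.63 ± 0.32 and an adjusted p of 0.0124 by edgeR. Both TLR9-/- libraries were well below both WT libraries, and the Adam11 difference departed from that in all other cells by -2.33 ± 0.44 (adjusted p = 0.0382, edgeR). In monocyte lineage cells Adam11 gave 0.28 (adjusted p = 0.909, edgeR). Padi1, an arginine deiminase (chr4:140812983-140845778), stood at 4.69 and 2.03 CPM against 36.3 and 23.2, with a log2 fold change of -3.28 ± 0.42 and an adjusted p of 0.0159. Epha2, an ephrin receptor kinase (chr4:141301240-141329384), stood at 28.1 and 22.3 CPM against 62.8 and 70.1, with a log2 fold change of -1.41 ± 0.21 and an adjusted p of 0.0414. Without the pDCs that carried further lineage markers Padi1 kept its call, with an adjusted p of 0.0251, and Epha2 missed the threshold at 0.111 with a nearly equal log2 fold change of -1.37 (both by edgeR). Both genes had the same sign elsewhere, with -1.26 for Epha2 and -1.92 for Padi1 in B lineage cells. In all other cells together Epha2 gave -2.12 and Padi1 -1.98, neither called, and the interactions of 0.77 (adjusted p = 0.283, edgeR) and -1.27 (adjusted p = 0.538) showed no difference between pDCs and the rest past the threshold.

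A cluster of TRIM genes on chromosome 7, which encode ring-finger proteins related to the retroviral restriction factor TRIM5, held 4 genes that were lower in TLR9-/- pDCs. In chr7:104244457-104507849 (GRCm38, 0.263 Mb), a stretch bounded by called genes, 7 genes were tested and 4 were called, all lower in TLR9-/-. Over all genes tested 0.232% were called. Trim12a (chr7:104299894-104315466) had 0 and 0 UMIs in the TLR9-/- pDCs against 123 and 92 in the WT pDCs, which is at least 124-fold lower when the TLR9-/- libraries together are set to the floor of 3 UMIs. Its adjusted p was 0.00023 by edgeR. Trim30d (chr7:104470014-104507849) stood at 1.41 and 2.79 CPM against 58.5 and 42.0, with a log2 fold change of -4.44 ± 0.35 and an adjusted p of 0.000647. Trim5 (chr7:104263386-104288094) had 1 UMI in all TLR9-/- pDCs and 50 in all WT pDCs, a ratio of 86.8 with an exact 95% interval of 14.9 to 3497 that covers counting error only, and its adjusted p was 0.0068 by edgeR. Trim34a (chr7:104244457-104262234) stood at 5.16 and 3.29 CPM against 23.8 and 18.2, a log2 fold change of -2.37 ± 0.36 with an adjusted p of 0.0427. Its call was the least firm of the 4, holding in 9 of 15 fits, and without the pDCs that carried further lineage markers it was -2.30 with an adjusted p of 0.0756 by edgeR. Trim12a, Trim30d and Trim5 kept their calls without those cells. The neighbours Trim30b, Trim30a and Trim12c lay in the same stretch and were not called, at -1.16, -0.49 and 0.07. These genes are close copies of each other, and reads that fit more than 1 copy are not counted, so the values of single members are uncertain. Trim12a, Trim30d, Trim5 and Trim34a were lower in B lineage, monocyte lineage and neutrophil cells too, all called by edgeR. Trim12a had 0 and 2 UMIs in TLR9-/- B lineage cells against 503 and 653 in WT B lineage cells, and 3 and 3 against 122 and 108 in monocyte lineage cells.

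The 250 bases before the RefSeq start of these 4 genes are shown because the genes were low together in TLR9-/- cells. They were read from RefSeq on GRCm38.p6 and are written 5′ to 3′ on the strand of the gene, in lower case, with capitals for a match on either strand to GAAA followed by any 2 bases and a further GAAA (TTTC in place of GAAA where it is read from the other strand). This pattern belongs to the interferon-stimulated response element, and no match in these 4 windows overlaps one to the second pattern searched, CANNTG.
Trim12a: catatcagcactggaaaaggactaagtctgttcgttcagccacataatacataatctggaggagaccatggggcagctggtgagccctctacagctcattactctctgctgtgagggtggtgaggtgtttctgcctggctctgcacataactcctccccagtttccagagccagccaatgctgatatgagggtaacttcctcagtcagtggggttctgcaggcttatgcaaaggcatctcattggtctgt
Trim30d: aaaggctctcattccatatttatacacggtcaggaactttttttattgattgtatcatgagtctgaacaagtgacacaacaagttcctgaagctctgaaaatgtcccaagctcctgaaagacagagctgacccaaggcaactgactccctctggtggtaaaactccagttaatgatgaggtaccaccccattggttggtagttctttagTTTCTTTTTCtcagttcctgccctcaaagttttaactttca
Trim5: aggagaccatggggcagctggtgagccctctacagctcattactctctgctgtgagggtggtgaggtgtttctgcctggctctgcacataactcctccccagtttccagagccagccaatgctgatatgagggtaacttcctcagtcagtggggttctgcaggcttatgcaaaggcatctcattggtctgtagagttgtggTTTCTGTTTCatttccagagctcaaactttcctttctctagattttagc
Trim34a: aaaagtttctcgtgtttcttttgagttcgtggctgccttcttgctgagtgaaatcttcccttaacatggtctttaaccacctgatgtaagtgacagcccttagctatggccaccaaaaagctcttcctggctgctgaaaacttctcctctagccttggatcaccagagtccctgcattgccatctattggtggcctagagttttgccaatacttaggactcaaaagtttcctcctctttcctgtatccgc
The windows are chr7:104315496-104315745 for Trim12a, chr7:104507850-104508099 for Trim30d and chr7:104288107-104288356 for Trim5, all on the minus strand, and chr7:104244207-104244456 for Trim34a on the plus strand. Trim30d held TTTCTTTTTC 41 bases before its start and Trim5 held TTTCTGTTTC 49 bases before its start. The Trim12a and Trim5 windows shared an unbroken run of 191 bases, which began at base 60 in Trim12a and at base 1 in Trim5, so the stretch with the match in Trim5 lies past the end of the run. Of the 22 called genes 17 had such a window, some of them several, which makes 22 windows. The GAAA pair stood in 3 of these 22 windows, those of Trim30d, Trim5 and Cd300c, and in 978 of all 32851 windows, or 2.98%. The E protein pattern CANNTG, read on both strands, stood in 18 of the 22 windows and in 66.2% of all windows. A match describes letters only, and no binding was measured.

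The other genes higher in TLR9-/- pDCs included 3 transcripts that encode no known protein. BC018473, an antisense transcript (chr11:116752167-116759373), had 535 and 1139 UMIs in the TLR9-/- pDCs and 2 and 0 in the WT pDCs, a ratio of 482 with an exact 95% counting interval of 133 to 3983 and an adjusted p of 3.83e-05 by edgeR. Cells with markers of a further lineage held 65.8% of its UMIs. The processed pseudogene Gm6594 (chr17:82539260-82539545) had no UMI in WT pDCs and stood at 59.5 and 85.9 CPM in TLR9-/- pDCs, at least 89.4-fold higher, and the long noncoding RNA Gm35082 (chr7:100675088-100677760) was at least 26.3-fold higher. A pseudogene shares sequence with its parent, so the value of Gm6594 is uncertain. All 3 were thus nearly or wholly missing from the WT libraries. Mid1 (chrX:169685199-170005736), a ring-finger protein bound to microtubules, stood at 65.6 and 71.7 CPM against 11.4 and 12.5, with a log2 fold change of 2.52 ± 0.23 and an adjusted p of 0.00148. Ocel1 (chr8:71371298-71379361), which has an occludin-like domain, stood at 133 and 140 CPM against 49.8 and 37.0, with a log2 fold change of 1.64 ± 0.20 and an adjusted p of 0.0138. St6galnac2 (chr11:116675303-116694868), a sialyltransferase, had 90 UMIs in TLR9-/- and 2 in WT pDCs, a ratio of 25.9 with a counting interval of 6.97 to 217 and an adjusted p of 0.0159 by edgeR. Without the pDCs that carried further lineage markers St6galnac2 was not called (adjusted p = 0.0756, edgeR), with a log2 fold change of 5.13 beside 4.52 over all pDCs. BC018473, Gm6594, Gm35082, Mid1 and Ocel1 were still called, Mid1 at 2.41 and Ocel1 at 1.77.

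Among the other lower genes, Naip5, a sensor of bacterial flagellin with near-identical neighbours, stood at 2.34 and 4.05 CPM against 21.1 and 18.8, with a log2 fold change of -2.54 and an adjusted p of 0.0344 by edgeR. Mettl23 (chr11:116843278-116854263), a methyltransferase, stood at 60.9 and 67.2 CPM against 137 and 147, with a log2 fold change of -1.14 and an adjusted p of 0.0427. Hist1h4i, 1 of several nearly identical histone H4 genes, stood at 23 and 16.5 CPM against 62.8 and 60.8, with a log2 fold change of -1.68 and an adjusted p of 0.0268. These 3 genes lost their call without the pDCs that carried further lineage markers, with adjusted p of 0.157, 0.186 and 0.0756 by edgeR and log2 fold changes of -2.51, -0.98 and -1.70. The last 4 calls rested on pDCs with markers of a further lineage. Such cells held 100% of the UMIs of Stfa1, a neutrophil stefin, 94.4% of Smim1, an erythroid membrane protein, 92.3% of Gm34084 and 89.6% of Gm16867, and without them these 4 genes had too few UMIs to be tested.

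Most of the called genes differed beyond pDCs. Of the 22 genes, 14 were also called in B lineage, monocyte lineage or neutrophil cells, 10 of them in all 3, and 8 in none. Of the 8, Id3, Hist1h4i, Smim1 and Stfa1 were tested in all 3 classes, Cd300c in B lineage and monocyte lineage cells, and Adam11, Padi1 and Epha2 in a single class, so a missing call is partly a missing test. These comparisons had their own background, with 34 genes (0.283%) called in B lineage cells, 51 (0.45%) in monocyte lineage cells and 58 (0.556%) in neutrophils. Mid1 gave log2 fold changes of 2.13, 2.84 and 2.56 in the 3 classes, and Ocel1 gave 1.60, 1.39 and 1.67, all called. The called genes were spread over 9 chromosomes, with 14 of the 22 on chromosomes 4, 7 and 11, where 0.681%, 0.713% and 0.619% of the tested genes were called. Over all genes tested the share was 0.232%. In chr11:114956116-116854263 (1.90 Mb), 4 of 50 tested genes were called, with BC018473 and St6galnac2 higher and Cd300c and Mettl23 lower. In chr4:136143497-141329384 (5.19 Mb), 3 of 40 were called, with Id3 higher and Padi1 and Epha2 lower. Both stretches were drawn from called gene to called gene, so these counts are a description only. On chromosome 9, which carries Tlr9, edgeR called 0 of 530 tested genes, and Tlr9 itself had an unadjusted p of 0.00535.

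**Figure D4:**
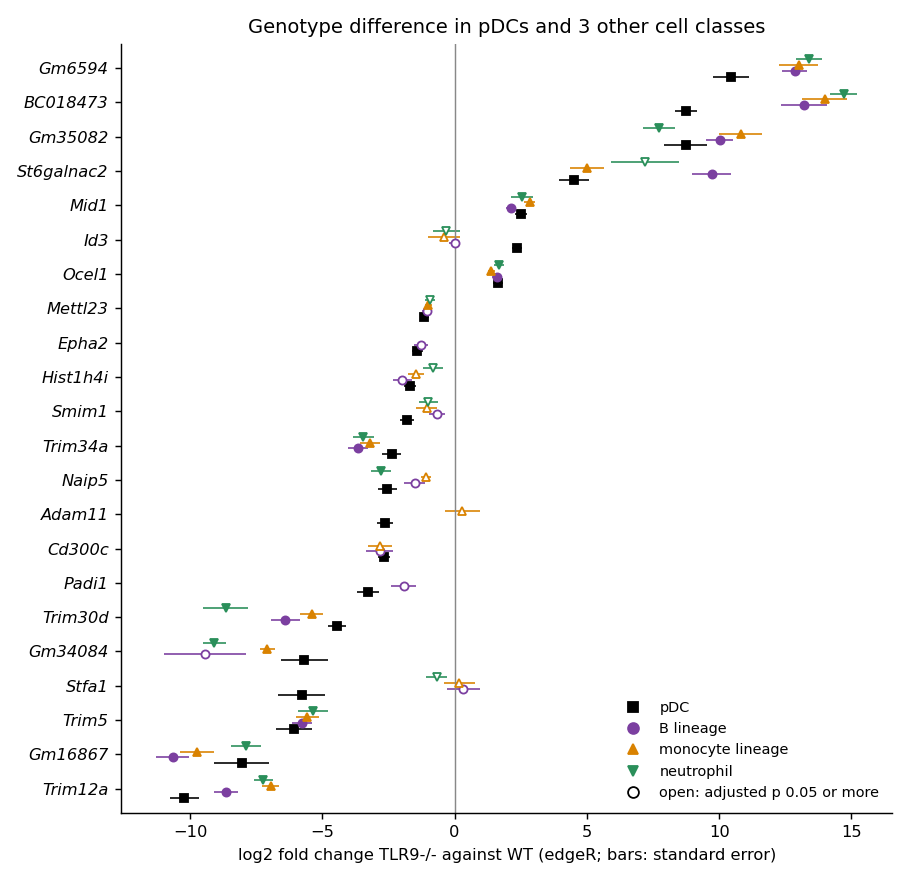
Log2 fold change (TLR9-/- over WT, ± SE) of called genes in pDCs, B lineage cells, monocyte lineage cells and neutrophils, with filled symbols for an adjusted p under 0.05 and open symbols otherwise. Fitted values of genes without a UMI in 1 genotype depend on the prior count. Trim12a is low in every class shown, whereas Id3 is high in pDCs at 2.36 and near 0 in B lineage cells.

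The difference between pDCs and all other cells was also tested gene by gene. Of 13366 genes, 69 (0.516%) passed, 45 of them (0.337%) with a larger log2 fold change in pDCs and 24 (0.18%) with a smaller one. After Id3 the genes with the smallest p included the pDC and B lineage genes Ly6d, Spib and Ighm. Their log2 fold changes in pDCs were 0.23, 0.11 and -0.20, none called, while in all other cells they were -1.11, -1.27 and -1.03. The other cells held fewer B lineage cells in TLR9-/- marrow, with 3243 and 2494 against 4912 and 4421 in WT, and the part of this in the result was not tested. With B lineage cells as the comparator, 4 of 12057 genes (0.0332%) passed, and with monocyte lineage cells 22 of 11193 (0.197%). Against all 3 sets of cells 2 genes passed, Id3 and Stfa1. Against conventional dendritic cells edgeR called 0 of 8672 genes, or 0%, with 357 genes (4.12%) at an unadjusted p under 0.05.

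On the list of pDC identity genes, 32 genes were tested, 1 was lower (Cd300c), none was higher, and the median log2 fold change was -0.05. At an unadjusted p under 0.05 there were 8 of the 32, beside 6.53% of all genes. With no filter on low counts edgeR called 1 higher and 3 lower of the 32. In that fit 74 of all 15518 genes were called higher and 103 lower. The most abundant members showed overlapping groups. Bst2 stood at 3965 and 3545 CPM in TLR9-/- and at 4567 and 3207 in WT, a log2 fold change of -0.05 ± 0.22. Irf8 stood at 1949 and 2224 against 2004 and 2171, and gave -0.00 ± 0.19. Ly6c2 gave 0.04 ± 0.23. Both TLR9-/- libraries lay above both WT libraries in 6 of the 32 genes and below in 9, beside 18.4% and 18.8% of all genes tested. The T cell coreceptor Cd4, named after its values were seen, stood at 26.3 and 27.6 CPM against 69.8 and 47.0 with an adjusted p of 0.195 by edgeR.

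Almost no UMIs of interferon genes were captured in these pDCs. Of 13 interferon genes 4 had any UMI, 43 UMIs in all. A single pDC of WT 1, with 2235 UMIs in total, held all 40 Ifna UMIs, 17 of them from Ifna1, 22 from Ifna2 and 1 from Ifna11. In the other libraries no pDC held any, that is 0 of 580, 0 of 649 and 0 of 356 cells, which allows shares of up to 0.517%, 0.462% and 0.843% of cells with a captured UMI and sets no limit on cells that express the gene. Il12b, a subunit of interleukin 12, had 8 UMIs in the pDCs of WT 1, none of them in the cell with Ifna UMIs. Of 26 interferon and cytokine genes 7 could be tested and edgeR and DESeq2 called 0, with 0 at an unadjusted p under 0.05. With no filter on low counts edgeR called 2 higher and 2 lower of 17 genes, among them Ccl4 at 0.91 (adjusted p = 0.0366). In that fit 74 of all 15518 genes were called higher and 103 lower. The chemokines Ccl4 and Ccl5 followed the library number, with Ccl4 at 92.3 and 3.29 CPM in TLR9-/- and 44.4 and 3.13 in WT and Ccl5 at 114 and 45.4 against 109 and 43.8.

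Interferon-stimulated genes leaned towards lower values, with WT 1 as the high library. Of 55 listed genes 46 were tested, 0 were called by edgeR or DESeq2, and 6 had an unadjusted p under 0.05. With no filter on low counts edgeR called 0 higher and 3 lower of 54 genes. In that fit 74 of all 15518 genes were called higher and 103 lower. A log2 fold change below 0 was seen for 38 and above 0 for 8, with a median of -0.25. Over all genes tested 4858 were below 0 and 4615 above, and 6.53% had an unadjusted p under 0.05. The stem cell antigen Ly6a stood at 348 and 317 CPM in TLR9-/- and 1130 and 257 in WT, and Ifi27l2a at 922 and 1025 against 1938 and 906. In both genes WT 1 alone was high and the other WT library lay below both TLR9-/- libraries. Summed over the list, the libraries held 6454 and 6324 against 9440 and 5299 unscaled CPM. Without WT 1 the median was 0.40, and without WT 2, with WT 1 alone for its genotype, it was -0.64. The sign of the list's median thus turned on whether WT 1 was included. Irf7, itself interferon-inducible, stood at 146 and 146 CPM against 220 and 65.8.

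Signalling downstream of the receptors gave no call. Of 31 TLR signalling genes edgeR and DESeq2 called 0, with 2 at an unadjusted p under 0.05 and a median of -0.05. Nfkbia, the inhibitor of NF-κB, stood at 109 and 103 CPM against 134 and 113, and Nfkb1 at 114 and 121 against 125 and 120. Dock2, which relays signals to interferon production in pDCs, gave -0.27 ± 0.20. In the early response list, of 15 tested genes 0 were called by edgeR or DESeq2, with 0 at an unadjusted p under 0.05 and a median of 0.34. This median moved with single libraries, from -0.27 without TLR9-/- 1 and -0.05 without WT 2 to 1.03 without TLR9-/- 2 and 1.11 without WT 1. With a single TLR9-/- library in the fit, 3 genes were called lower in the first case and 7 higher in the third. Jund, an AP-1 subunit, followed the library number at 213 and 62.6 CPM against 203 and 88.3.

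Antigen presentation genes were likewise uncalled by edgeR in its main fit. For MHC class I, edgeR called 0 of 20 genes, with 3 at an unadjusted p under 0.05 and a median of -0.10, while DESeq2 called H2-Q6 and H2-Q7. H2-Q6 stood at 10.8 and 22.3 CPM against 101 and 50.7 with an adjusted p of 0.0891 by edgeR, and H2-Q7 at 91.9 and 142 against 355 and 198 with 0.293. These nonclassical genes are close copies, so their values are uncertain, and they are named because DESeq2 called them. B2m, the shared light chain, gave -0.39 ± 0.22 and H2-K1 gave -0.41 ± 0.23. For MHC class II, edgeR and DESeq2 called 0 of 12 genes, with 0 at an unadjusted p under 0.05 and a median of -0.02. Cd74, the invariant chain, stood at 2890 and 2027 CPM against 3219 and 1253. As for the interferon-stimulated genes the WT libraries pulled in opposite directions, with a median of 0.48 without WT 1 and of -0.44 without WT 2.

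The secretory programme, which is large in pDCs, had a median above 0 and no call. Of 22 unfolded protein response and secretory genes edgeR and DESeq2 called 0, with 2 at an unadjusted p under 0.05. A log2 fold change above 0 was seen for 16 and below 0 for 6, with a median of 0.18. Ssr4, a translocon subunit, stood at 534 and 580 CPM against 526 and 445, and Hsp90b1 at 984 and 912 against 983 and 728. For the G2/M list, edgeR and DESeq2 called 0 of 20 genes, with 4 at an unadjusted p under 0.05, and the median was 0.25 with 17 genes above 0. Over all genes tested 4615 were above 0 and 4858 below, and 6.53% had an unadjusted p under 0.05. Ube2c gave 0.17 ± 0.20 and Birc5 0.14 ± 0.18. Of 14 tested genes of the lymphoid programme, Id3 was called higher and no other gene was called, with 3 at an unadjusted p under 0.05 and a median of -0.34. That median was -0.06 without WT 2, -0.11 without TLR9-/- 2 and -0.13 without WT 1. The antigen receptor gene Ighm stood at 573 and 640 CPM against 680 and 715, and the interleukin 7 receptor gene Il7r at 145 and 99.3 against 173 and 134.

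**Figure D5:**
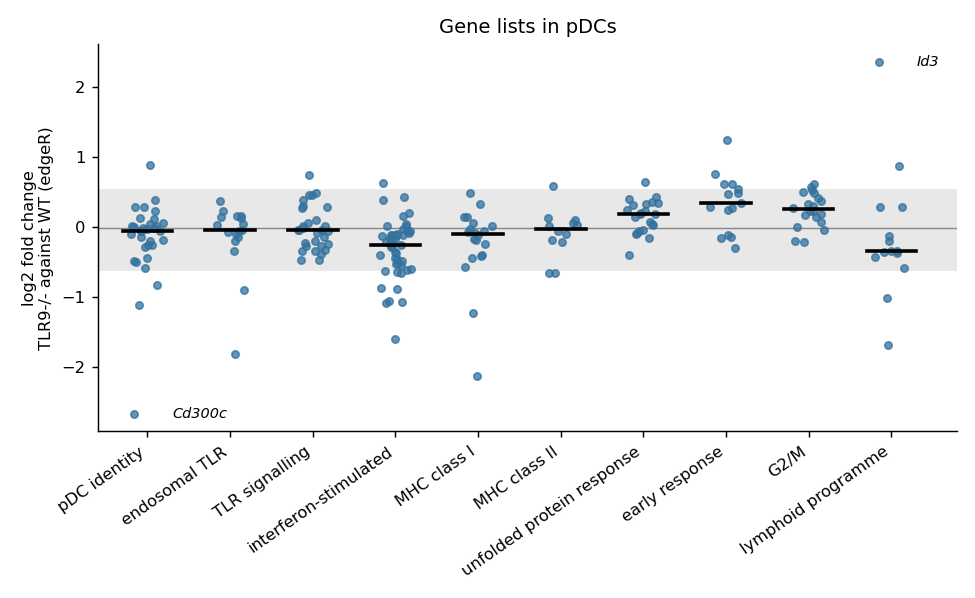
Log2 fold change (TLR9-/- over WT) in pDCs of each tested gene of 10 pathway and identity lists (marker lists of other cell types are not drawn), grouped by list with the list's median as a bar, with a grey band from the 5th to the 95th percentile of all 9473 genes (-0.62 to 0.52) and a line at their median (-0.01). Most members of each list drawn lie within the band, and Id3 and Cd300c stand outside it at 2.36 and -2.67.

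Over the pDCs without further lineage markers the list medians were 0.02 for pDC identity, 0.04 for endosomal sensing, -0.05 for TLR signalling, -0.16 for interferon-stimulated genes, -0.07 for MHC class I and 0.12 for MHC class II. They were 0.12 for the unfolded protein response, 0.33 for the early response and -0.25 for the lymphoid programme. For G2/M the median was 0.45, and 20 of 20 genes were above 0. Over all genes in that fit 4221 were above 0 and 4197 below. Id3 and Cd300c were again the only list genes called. Among lists not yet described this way, leaving out WT 1 turned the medians of pDC identity to 0.07, endosomal sensing to 0.23 and MHC class I to 0.03. Those of the unfolded protein response, between 0.04 and 0.38, and of G2/M, between 0.11 and 0.43, stayed above 0 with any single library left out.

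Marker lists of other cell types gave no call by DESeq2 or by edgeR as fitted above. Over all genes tested 4858 were below 0 and 4615 above, and 6.53% had an unadjusted p under 0.05. The erythroid list had 8 of 8 tested genes below 0, with a median of -1.25, 5 at an unadjusted p under 0.05 and the high level in WT 1 given above. With no filter on low counts edgeR called all 8 lower, beside 103 of all 15518 genes called lower in that fit. Without WT 1 the median of the erythroid list was -0.25. The neutrophil list had 10 of 10 above 0, with a median of 0.23 and 3 at an unadjusted p under 0.05. Its median was -0.10 without WT 1, 0.73 without WT 2 and, over the 7 genes still tested, -0.73 without the pDCs that carried further lineage markers, so its direction was not stable. The medians were -0.51 for 5 B lineage genes, 0.09 for 8 monocyte genes, 0.06 for 7 conventional dendritic cell genes and 0.02 for 5 T and NK cell genes, each with 1 gene at an unadjusted p under 0.05. The 4 plasma cell genes had a median of 0.56, also with 1 such gene, and the 7 genes of transitional dendritic cells a median of -0.14 with 0. These medians moved with single libraries left out. They ranged from -1.34 (without TLR9-/- 1) to -0.13 (without WT 1) for B lineage genes, from -0.42 (without TLR9-/- 1) to 0.68 (without WT 1) for T and NK cell genes and from -0.19 (without WT 2) to -0.08 (without TLR9-/- 2) for conventional dendritic cell genes. The range was 0.01 to 0.21 for monocyte genes, 0.16 (without WT 2) to 0.91 (without TLR9-/- 1) for plasma cell genes and -0.30 to 0.09 for transitional dendritic cell genes. The B lineage markers, led by Igkc, summed to 296 and 261 unscaled CPM in TLR9-/- pDCs and to 346 and 193 in WT pDCs, and the genotypes overlapped.

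pDCs made up 5.38% and 7.28% of TLR9-/- marrow cells, against 5.85% and 4% of WT marrow cells. The groups overlapped, with means of 6.33% ± 1.34 and 4.93% ± 1.31 (SD, n = 2) and an exact two-sided permutation p of 0.667. With 2 libraries per genotype no permutation test can go below 0.333. The rule counts UMIs, and with each cell thinned to 1000 UMIs the shares were 3.15% and 3.54% against 4.06% and 1.96%, a difference of 0.333 percentage points in place of 1.40. With single libraries left out the difference ranged from 0.451 to 2.35 percentage points. A stricter rule, on unthinned counts, asked for at least 4 UMIs of Siglech, 8 of the rule genes together and no Cd79a. It gave 3.23% and 5.64% against 3.13% and 2.51%, a difference of 1.62 percentage points with an exact permutation p of 0.333. Fitted with all cell classes together, the share gave a log2 fold change of 0.36 ± 0.31 (adjusted p = 0.476, edgeR). Among cells outside the B lineage the means were 8.90% and 9.45%, so the sign of the difference depended on the denominator. At 1000 UMIs per cell, 12.1% and 16.2% of TLR9-/- pDCs and 9.65% and 13.8% of WT pDCs carried at least 3 UMIs of the G2/M list, a difference of 2.44 percentage points with an exact permutation p of 0.667. Other marrow cells carried such counts in 27.4% of cells in TLR9-/- and 33.8% in WT on average.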

How the data were processed

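Single-cell 5′ libraries of bone marrow mononuclear cells from 2 TLR9-/- and 2 WT mice were analysed from the deposited gene-by-cell matrices of UMI counts, which the authors made with Cell Ranger (3.0.1 per the file headers) and STAR on mm10. Further steps of the authors, such as clustering in Seurat 2.3.4, were not used. The matrices held 40545 barcodes and 31053 features. Cells with 200 to 10000 genes and at most 10% mitochondrial UMIs were kept. The members and gene lists were chosen with earlier results of these data known. Counts were summed per library and cell class and tested with edgeR 4.0.16 (R 4.3.3) by quasi-likelihood, with filterByExpr, TMM scaling, genotype as the only term and Benjamini-Hochberg adjustment at 0.05. The interaction with other cells used the sums of both kinds of cells. Nothing in the files says that the libraries come from separate litters. Shares were compared by exact permutation tests in Python 3.11.15 (scipy 1.17.1). The genotype and interaction fits of edgeR were also run on simulated counts.

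Other classes were set by UMIs of fixed markers, such as at least 2 UMIs of Cd79a for B lineage cells. Named are Tlr9, the rule genes, tested members of the endosomal list, up to 12 called genes per direction with the largest change, the 8 interaction genes with the smallest p, called list members and, where a list had fewer than 2 calls, its most abundant members. Epha2, Hist1h4i and Mettl23, called but outside the 12 largest changes, and Tlr12, Cd4, H2-Q6 and H2-Q7 were named after their values were seen. Alternatives were DESeq2 1.42.0, RLE factors, no filter on low counts, a replicate block, leaving out each library, stricter and looser member rules, at most 5% mitochondrial UMIs, leaving out pDCs deeper than 2 times their library's median and thinning to 1000 UMIs. Leaving out pDCs with further lineage markers, a rule without Klk1, and B lineage or monocyte lineage cells as comparators were added after seeing the data. No doublet caller was run. Intervals and floors (3 UMIs, 95% level) cover counting error only.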

Additional observations from a re-analysis of the deposited data

Results flagged for a closer look

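The genotype difference in pDCs departed from that in all other cells, by edgeR's interaction test, for the following genes, each given as the log2 fold change in pDCs minus that in all other cells. Id3 stood at 3.25 and was the single one of these genes that was also called against B lineage cells and monocyte lineage cells without resting on pDCs of a further lineage. Adam11 stood at -2.33, with 14.1% of its pDC UMIs in cells with markers of a further lineage. It was not called against B lineage cells alone, at -1.50, or against monocyte lineage cells alone, at -2.96 (adjusted p = 0.0521, edgeR). Ly6d stood at 1.35, Spib at 1.41, Lynx1 at 1.48 and Ighm at 0.83. In pDCs these 4 genes gave 0.23, 0.11, 0.26 and -0.20, while in all other cells, with their differing share of B lineage cells, they gave -1.11, -1.27, -1.21 and -1.03. Ly6d was called against monocyte lineage cells alone, at 0.81 (adjusted p = 0.0478, edgeR), but not against B lineage cells alone, at 0.41. Spib, Lynx1 and Ighm were called against neither. Plac8 stood at -0.59, with -0.01 in pDCs and 0.59 in all other cells. Igkv6-15, an immunoglobulin light chain segment, stood at -5.57 and had 2 and 8 UMIs in TLR9-/- pDCs against 18 and 1 in WT pDCs, while B lineage cells held 12091 and 35264 against 1065 and 967. Without the pDCs that carried further lineage markers Igkv6-15 stood at -3.50 and was not called (adjusted p = 0.316, edgeR). Ctsk, the protease cathepsin K, stood at 6.57, and 292 of its 293 UMIs in TLR9-/- 2 pDCs came from a single cell. Stfa1 stood at -5.33, and all 41 of its UMIs were in pDCs with markers of a further lineage. No explanation was tested for any of these.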

How the results depend on the processing

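The count of 22 genes called in pDCs was 177 with no filter on low counts, 14 without the deep pDCs, 10 after thinning, 12 without pDCs that carried further lineage markers, and 35 (without WT 1) to 130 (without WT 2) when single libraries were left out, where the lone library is assumed to vary like the other genotype. DESeq2 called 30, 20 of them among the 22. The labels do not say which libraries came from the same experiment, and same-numbered libraries share only a number in them (correlation of their deviations 0.539 over 2615 genes). With the number as a replicate block 239 genes were called, 101 higher and 138 lower, among them all 22, with all 8 erythroid markers lower and 3 neutrophil markers higher. The block called 1 higher and 4 lower genes on the pDC identity list, and the same numbers on the interferon-stimulated list. It called 3 higher early response genes, 2 lower MHC class I genes, and Ccl4 at 0.95 (adjusted p = 0.0131, edgeR). On the TLR signalling, MHC class II and G2/M lists it called 0. Tlr9 was -1.76 with no filter on low counts (adjusted p = 0.00165, edgeR), -1.64 in the paired fit (adjusted p = 0.00347) and -2.34 to -0.85 with single libraries left out, the lower end without WT 2, and it was too low to be tested after thinning. The difference in pDC share turned to -0.547 percentage points outside the B lineage, and that in G2/M share to -0.527 at 2000 UMIs per cell, neither past the test. The 69 genes that differed from all other cells became 347 with no filter, 114 under the stricter rule, 178 without further lineage markers, 4 against B lineage cells, 22 against monocyte lineage cells, and 65 to 442 with single libraries left out (without TLR9-/- 2 and WT 2). Against conventional dendritic cells the count of 0 became 1 with RLE factors, 23 with no filter, 3 without further lineage markers and 2 to 31 with single libraries left out. Signs turned for Ccl4 (-2.84 without TLR9-/- 1, up to 3.81 without WT 1). They also turned for Gzma (-4.05 without TLR9-/- 1 to 1.10 without TLR9-/- 2, and -3.74 without deep pDCs). Against other cells the sign turned for Ctsk (-1.94 without TLR9-/- 2 to 9.15 without WT 1). Against monocyte lineage cells it turned for Plac8 (0.051) and Ighm (-0.47). Without further lineage markers Stfa1 gave 0.70 ± 2587 (SE) against other cells. All its pDC UMIs lay in the cells left out, so that value gives no direction. The cause was not tested. Of 1572 values for 117 single genes, 45 lost and 45 gained a call. Sign changes of values called under neither setting were not counted. With 2 libraries per genotype, small differences were not detectable.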
